A study of Mus musculus with 6 samples.

Results

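The dual-specificity MAP kinase phosphatases described here were 8 genes: Dusp1, Dusp2, Dusp4, Dusp5, Dusp6, Dusp7, Dusp10 and Dusp16. They were taken by name out of the 19938 genes that had a probe set of exactly 1 symbol on the array, and each of the 8 had a single such probe set. RNA came from bone marrow cells that were sorted as positive for Kit and CD11b and low for lineage markers (the labels write K11bL), and 6 arrays were run, 1 for each mouse. The 2 groups were 3 wild type mice and 3 MYB knockdown mice, and both groups were males of the C57BL6 strain aged 4 weeks. The labels name no other allele or agent, do not say by what means MYB was lowered or in which cells, and mention no pooling of animals, so each array stands for a separate mouse. The series title describes these cells as myeloproliferative. Values are log2 expression values as the authors deposited them, on which a difference of 1 is a doubling.

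MAP kinases are switched on when a kinase above them phosphorylates a threonine and a tyrosine in the activation loop, and DUSP phosphatases switch them off by removing both phosphates. The ERK branch carries signals from growth factor and cytokine receptors such as Kit, while the JNK and p38 branches respond mainly to stress and inflammatory signals. Many DUSP genes are themselves induced by the kinases they act on, so that their messenger RNA forms part of a negative feedback loop. By their place and substrate, Dusp1, Dusp2, Dusp4 and Dusp5 encode inducible phosphatases of the nucleus, Dusp6 and Dusp7 encode cytoplasmic phosphatases of ERK, and Dusp10 and Dusp16 encode phosphatases that act on JNK and p38.

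The array medians lay between 5.87 and 5.99, and knockdown mouse 3 stood apart from the other arrays, with correlations over all probe sets of 0.977 and 0.984 with knockdown mice 1 and 2, which correlated at 0.994 with each other. Myb was 1.23-fold lower in the knockdown (difference -0.30 ± 0.06 SE, adjusted p = 0.0196 in limma), below every wild type value in each of the 3 knockdown mice. That call was lost on removal of any 1 of the wild type mice or of knockdown mouse 2 (adjusted p between 0.0776 and 0.0967), after median centring (0.074) and without the trend of eBayes (0.0662). The gate markers Kit and Itgam, which encodes CD11b, were read at means of 10.50 and 9.84 in wild type and 10.22 and 9.45 in the knockdown, and neither difference was called (adjusted p = 0.06 and 0.202), but both calls depended on the fit. Both passed with array weights (0.00423 and 0.0318). Kit also passed after quantile normalization (0.0405), with the dimmer 50% of genes left out (0.0497) and when knockdown mouse 3 was removed (0.0147), and Itgam when knockdown mouse 1 was removed (difference -0.59, adjusted p = 0.0239); the Itgam difference was -0.20 on removal of knockdown mouse 3.

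Among the 8 phosphatase genes 1 fell, Dusp6, and 1 rose, Dusp16. Over all 13956 genes tested the same limma fit called 11.6%, of which rises made up 6.12% of genes and falls 5.48%. Median centring of the arrays left the calls on both genes in place but shifted the split over all genes from 854 rises and 765 falls to 1433 and 593. Dusp4 was too dim to pass the filter, so 7 of the 8 were tested. The difference was above 0 for 6 of the 8 genes, and for 5 of the 7 that were tested, against 53.6% of all genes tested. It was below 0 for Dusp2 and Dusp6. The median difference over the 8 genes, with the untested Dusp4 included, was 0.22, against 0.02 over all genes tested. All 3 knockdown mice lay above all 3 wild type mice for 5 of the 8 genes (Dusp1, Dusp5, Dusp7, Dusp10 and Dusp16), and below them for 1 (Dusp6). Over all genes tested the groups did not overlap for 34.3%, with the knockdown above for 19.9% and below for 14.4%.

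**Figure D1:**
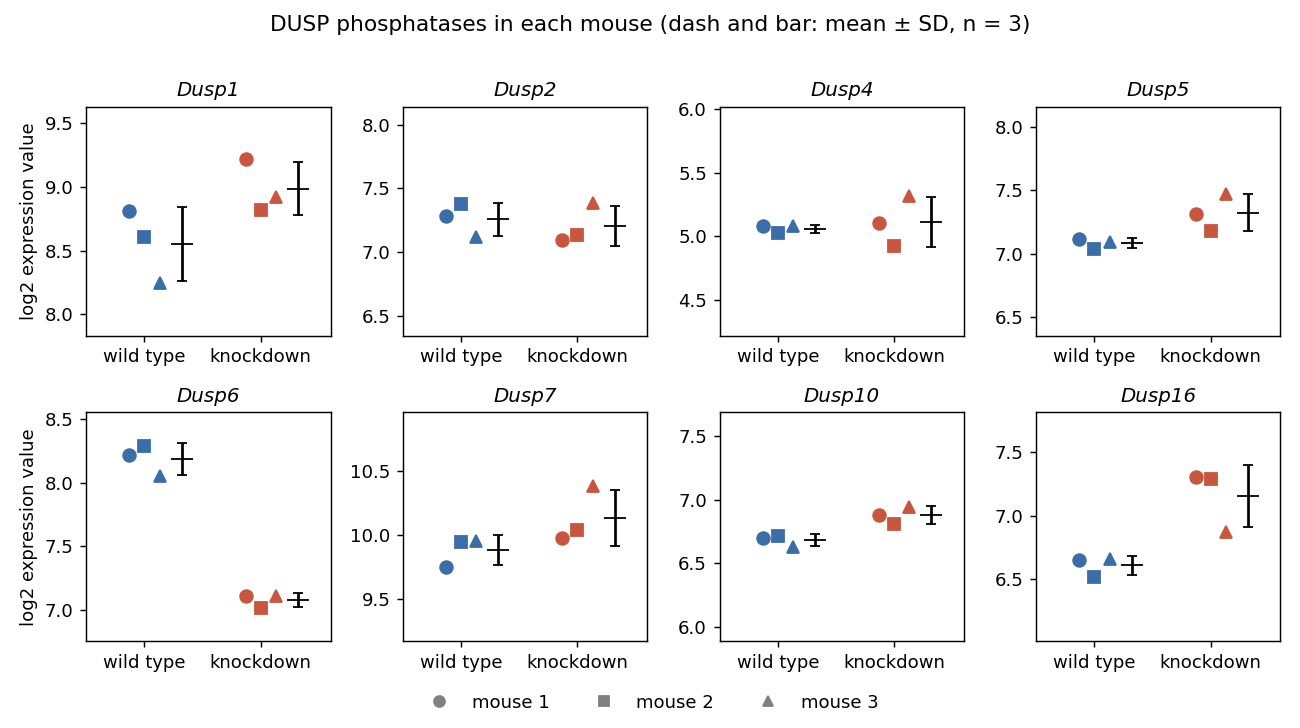
Log2 expression value (vertical axes, each spanning the same number of log2 units) of the 8 phosphatase genes in 3 wild type mice (blue) and 3 MYB knockdown mice (red); the symbol shape gives the mouse, and the dash and bar give mean ± SD (n = 3). Dusp6 is the gene with the widest gap between the groups, at 8.19 in wild type and 7.08 in the knockdown, while the values of Dusp2 and Dusp4 overlap.

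Dusp6 encodes the cytoplasmic phosphatase that is most selective for ERK, and its gene is a standard readout of ERK activity. Its values were 8.22, 8.29 and 8.05 in the 3 wild type mice and 7.11, 7.01 and 7.11 in the 3 knockdown mice. The groups were far apart compared with the spread inside them: the wild type mice differed among themselves by 0.24 and the knockdown mice by 0.10. Wild type mice averaged 8.19 ± 0.12 (SD, n = 3), and knockdown mice 7.08 ± 0.06 (SD, n = 3). Dusp6 fell by 1.11 ± 0.11 (SE), or 2.16-fold, with a 95% interval of the difference from -1.35 to -0.87 and an adjusted p of 0.000454 in limma. By size this was the 178th largest fall, and by p the 132nd smallest, among 13956 genes. The call was kept whichever of the 6 mice was left out, with differences between -1.18 and -1.06 and adjusted p between 5.21e-05 and 0.00606.

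The promoters of the 2 genes that changed are shown because the factor that was lowered, MYB, binds DNA at a short core. Both come from the RefSeq annotation of GRCm38.p6, cover the 250 bases before the start of transcription and the 50 after it, and are written 5′ to 3′ on the strand of the gene. Capitals mark each match to the MYB core, AACNG, on either strand. The Dusp6 promoter lies at chr10:99262981-99263280 (plus strand), 78.1 Mb from that of Myb on the same chromosome, and the Dusp16 promoter at chr6:134792579-134792878 (minus strand).
Dusp6: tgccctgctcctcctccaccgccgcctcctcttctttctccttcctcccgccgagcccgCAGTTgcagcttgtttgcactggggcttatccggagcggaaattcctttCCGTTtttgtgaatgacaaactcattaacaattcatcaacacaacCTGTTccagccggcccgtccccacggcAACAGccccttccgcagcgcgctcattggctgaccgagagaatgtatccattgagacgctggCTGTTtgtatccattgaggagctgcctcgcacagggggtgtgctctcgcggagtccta
Dusp16: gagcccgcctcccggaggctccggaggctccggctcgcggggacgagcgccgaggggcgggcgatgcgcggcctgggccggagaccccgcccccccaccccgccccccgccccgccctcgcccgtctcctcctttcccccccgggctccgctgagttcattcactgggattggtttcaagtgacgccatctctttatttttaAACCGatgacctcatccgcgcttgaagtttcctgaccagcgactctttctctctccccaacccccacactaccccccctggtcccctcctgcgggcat

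The Dusp6 window held 5 matches to the MYB core and the Dusp16 window 1. A match to a core this short is common: 80.3% of the 32851 promoters of that length in the annotation table held at least 1, with a median of 2, and 4.49% held 5 or more. Of the 7 phosphatase genes with a promoter in the table, 5 held a match: Dusp1 with 3, of which 2 overlap, Dusp2 with 2, Dusp7 with 1, and the pair shown above. Dusp5 and Dusp10 held none, and Dusp4 was not in the table. These are matches of letters, and no binding was measured.

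Dusp16 encodes a phosphatase of JNK and p38 that moves between cytoplasm and nucleus. Its values were 6.65, 6.52 and 6.66 in wild type and 7.30, 7.29 and 6.87 in the knockdown. Knockdown mice 1 and 2 sat close together and well above the wild type, and knockdown mouse 3 lay between them and the wild type without overlapping it. Dusp16 rose by 0.55 ± 0.14 (SE), or 1.46-fold, with a 95% interval from 0.24 to 0.86 and an adjusted p of 0.0368 in limma. Without knockdown mouse 3 the difference was 0.69 (adjusted p = 0.000556). Without any other single mouse the call was lost: the adjusted p was 0.124, 0.159 and 0.112 without wild type mouse 1, 2 or 3 and 0.078 and 0.127 without knockdown mouse 1 or 2, with differences between 0.47 and 0.57. Over all genes tested, rises were 6.12% with all mice, between 2.14% and 3.07% when a wild type mouse or knockdown mouse 2 was removed, 5.54% on removal of knockdown mouse 1 and 17.1% on removal of knockdown mouse 3.

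**Figure D2:**
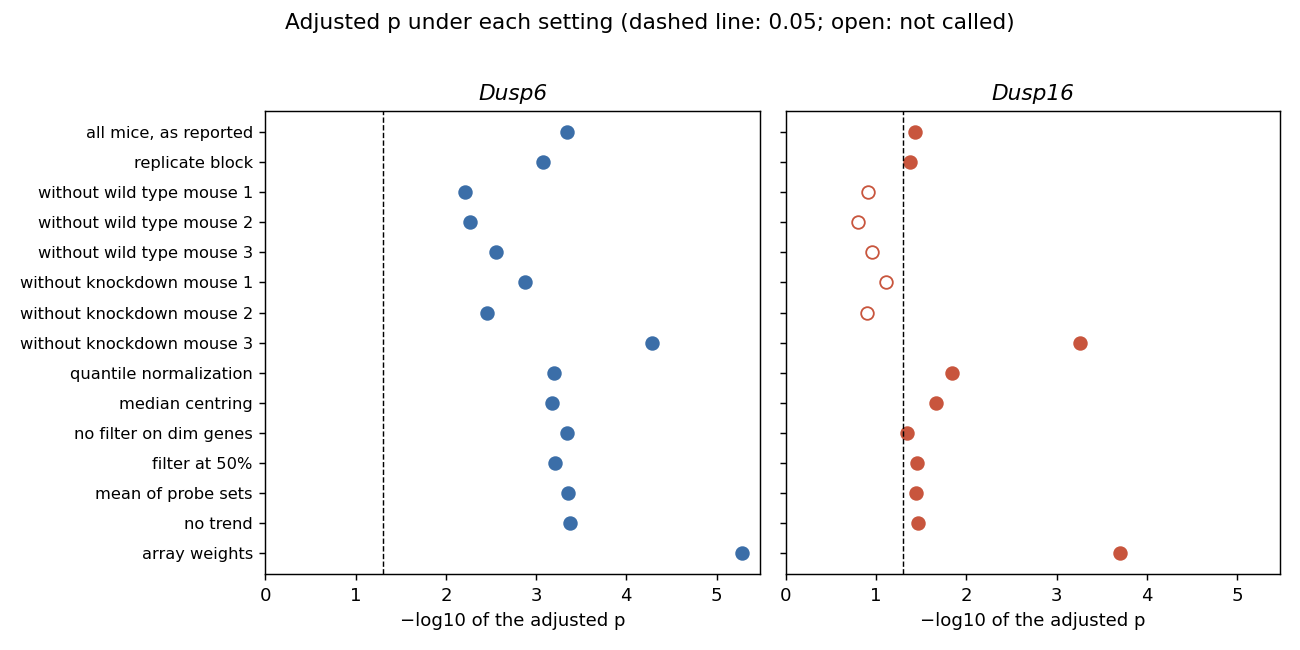
Size of the −log10 adjusted p (horizontal axis) of Dusp6 (left, fell) and Dusp16 (right, rose) with all mice, with the replicate number as a block, with each mouse left out, and with other processing (vertical axis); filled points pass the threshold of 0.05 at the dashed line and open points do not. Dusp6 passes under every setting plotted, and Dusp16 is lost in 5 of the 6 fits that leave out a mouse.

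Dusp10, the other phosphatase of JNK and p38, was read at 6.70, 6.72 and 6.63 in wild type and at 6.88, 6.81 and 6.95 in the knockdown. All knockdown values were higher, but by little. The difference was 0.20 ± 0.09 (SE), with a 95% interval from -0.02 to 0.41, and was not called (adjusted p = 0.244 in limma).

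Dusp7 is the closest relative of Dusp6 and also encodes a cytoplasmic phosphatase of ERK. Its values were 9.75, 9.95 and 9.95 in wild type and 9.98, 10.04 and 10.38 in the knockdown. Knockdown mouse 3 was the highest, while knockdown mouse 1 lay only just above the highest wild type mouse. Dusp7 differed by 0.25 ± 0.12 (SE), with a 95% interval from -0.03 to 0.53, and was not called (adjusted p = 0.243). Without knockdown mouse 3 the difference was 0.13. The interval of Dusp6 ended at -0.87 and that of Dusp7 began at -0.03, so the intervals of these cytoplasmic ERK phosphatases did not overlap. The difference between the 2 genes was not itself tested.

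Of the 4 inducible nuclear phosphatases Dusp4 was under the filter on dim genes, and none of the others was called. Dusp1, which acts on p38 and JNK and is an immediate early gene, was read at 8.81, 8.61 and 8.24 in wild type and at 9.22, 8.82 and 8.92 in the knockdown. The wild type mice were spread over 0.57 and the knockdown mice over 0.40, and knockdown mouse 2 lay 0.01 above wild type mouse 1, so the groups only just separated. The difference was 0.44 ± 0.17 (SE), with a 95% interval from 0.06 to 0.82 and an adjusted p of 0.14 in limma. With array weights it passed (difference 0.55, adjusted p = 0.0244), and over the fits that left out a mouse the adjusted p lay between 0.0637 and 0.42. The difference was 0.28 when wild type mouse 3 was removed.

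Dusp5, whose product is a nuclear phosphatase selective for ERK, had values of 7.12, 7.04 and 7.09 in wild type and 7.32, 7.18 and 7.47 in the knockdown. The wild type mice were tight and the knockdown mice all higher, with knockdown mouse 3 the highest. The difference was 0.24 ± 0.11 (SE), with a 95% interval from -0.01 to 0.49, and was not called (adjusted p = 0.213). Dusp2, an inducible phosphatase of blood cells, was read at 7.28, 7.38 and 7.12 in wild type and at 7.10, 7.14 and 7.39 in the knockdown, so that the groups overlapped. Its difference of -0.05 ± 0.12 (SE) had a 95% interval from -0.33 to 0.23, it was not called (adjusted p = 0.855), and its sign turned after median centring (0.02) and without wild type mouse 2 or knockdown mouse 1. Dusp4, a nuclear phosphatase induced by ERK, was dim, at 5.08, 5.02 and 5.08 in wild type and 5.11, 4.92 and 5.32 in the knockdown. Its mean of 5.09 over the 6 arrays lay just under the dimmest gene that was kept (5.11), and in the fit without a filter it differed by 0.06 ± 0.11 (SE, adjusted p = 0.874).

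The promoters of Dusp1 and Dusp5 differ in the response elements they carry, and a stretch of each is shown for that reason, with the element in capitals, 5′ to 3′ on the strand of the gene. In Dusp1 (chr17:26508588-26508635, minus strand, GRCm38.p6) the capitals are the cAMP response element TGACGTCA, which 1.79% of all promoters in the table held. In Dusp5 (chr19:53529043-53529102, plus strand) they are 2 adjoining CArG boxes, the site of serum response factor, which 1.63% of promoters held.
Dusp1: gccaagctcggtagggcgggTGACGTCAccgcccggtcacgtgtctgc
Dusp5: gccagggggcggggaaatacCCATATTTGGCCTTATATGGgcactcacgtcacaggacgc

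No other of the 7 phosphatase promoters held either element. None of the 7 held the ETS site CCGGAAGT (3.89% of all promoters), the AP-1 site TGANTCA (7.81%) or the STAT5 site TTCNNNGAA (8.3%) in this window, on either strand.

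**Figure D3:**
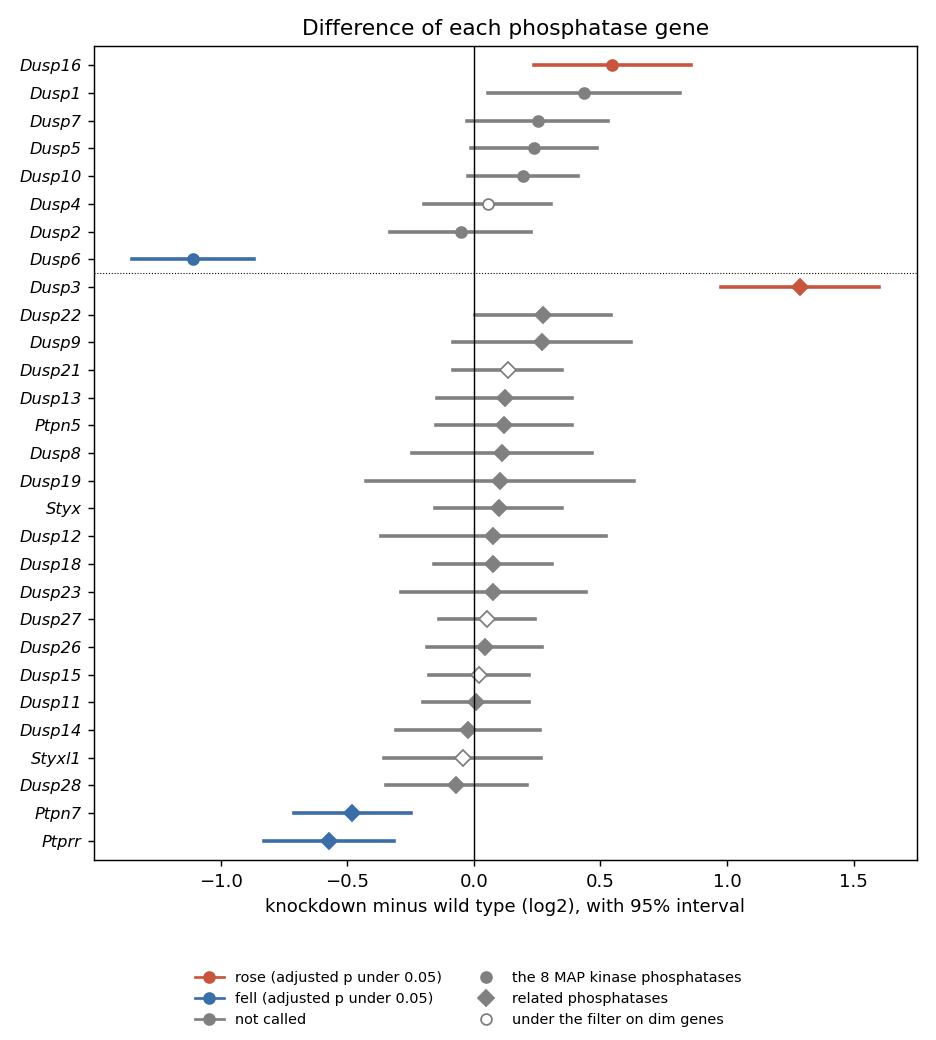
Difference between knockdown and wild type on the log2 scale (horizontal axis) with its 95% interval for the 8 MAP kinase phosphatases (circles, above the dotted line) and 21 related phosphatase genes (diamonds, below it), in red where the gene rose, blue where it fell and grey where it was not called; open symbols mark genes under the filter on dim genes. Dusp6 at -1.11 and Dusp3 at 1.29 lie farthest from 0.

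The related phosphatases were other genes of the DUSP family, with Styx and Styxl1 counted among them, and 3 tyrosine phosphatases that act on MAP kinases. The list held 21 genes in all. Of the 17 that were tested 1 rose and 2 fell, against 11.6% called over all genes tested. The median difference was 0.08, against 0.02 over all genes tested. The rise was of Dusp3, an atypical DUSP that acts on ERK and JNK. It was read at 6.45, 6.32 and 6.31 in wild type and at 7.63, 7.90 and 7.41 in the knockdown, so that the lowest knockdown mouse lay 0.96 above the highest wild type mouse. Dusp3 rose by 1.29 ± 0.14 (SE), or 2.44-fold (adjusted p = 0.000767), a larger rise than that of any of the 8 genes, and the call was kept with each mouse left out. Ptprr and Ptpn7, tyrosine phosphatases that bind and inactivate ERK and p38, fell by 0.57 ± 0.11 (adjusted p = 0.0142) and 0.48 ± 0.10 (adjusted p = 0.0188). Ptprr was dim, at 5.83, 5.52 and 5.55 in wild type and 4.94, 5.14 and 5.11 in the knockdown. Its mean over all arrays (5.35) passed the filter, but its knockdown mean of 5.06 lay under the dimmest gene kept (5.11). The size of its fall is therefore uncertain. Ptpn7 lost its call on removal of any 1 of the wild type mice or of knockdown mouse 2 (adjusted p between 0.0783 and 0.101), and Ptprr on removal of wild type mouse 1 (0.066). Dusp8 and Dusp9, which complete the family of MAP kinase phosphatases, differed by 0.11 ± 0.16 and 0.27 ± 0.15 and were not called.

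The kinase cascade that these phosphatases act on was read over 29 tested genes, from the adaptor Grb2 through RAS, RAF and MAP kinase kinases to the MAP kinases and the kinases below them. Of these, 1 fell and 0 rose in limma, against 11.6% called over all genes tested, and the median difference was -0.08. The groups did not overlap for 14 of the 29, in both directions, against 34.3% of all genes tested. An unadjusted p under 0.05 was found for 7 of the 29 (24.1%), against 25.6% of all genes tested. The same count was 4 of 17 for the related phosphatases, 6 of 15 for the ERK output and feedback genes and 10 of 22 for the immediate early genes. With array weights 3 rose and 3 fell. The fall was of Mapk13, a p38 kinase, by 0.90 ± 0.14 (1.86-fold, adjusted p = 0.00443), from 8.18, 8.59 and 8.53 in wild type to 7.68, 7.43 and 7.50 in the knockdown. Mapk14, the main p38 kinase, differed by -0.08 ± 0.07, Mapk8 and Mapk9 of the JNK branch by -0.19 ± 0.13 and 0.07 ± 0.10, and Map2k1 and Map2k2, the kinases directly above ERK, by -0.22 ± 0.12 and 0.28 ± 0.11.

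Genes that ERK induces, or that feed back on it, went both ways. Of 15 tested genes 2 rose and 2 fell, against 11.6% called over all genes tested. The median difference was 0.10, against 0.02 over all genes tested. Spry2, an inhibitor of receptor signalling that is induced with Dusp6 in many tissues, fell by 0.71 ± 0.11 (adjusted p = 0.0049), from between 6.74 and 6.94 in wild type to between 5.95 and 6.19 in the knockdown. Rasa2, a GTPase-activating protein that turns off RAS, fell by 1.40 ± 0.19 (adjusted p = 0.00265). Ccnd1, which encodes cyclin D1, rose by 1.01 ± 0.13 (adjusted p = 0.00222), and Errfi1, an inhibitor of the EGF receptor, rose by 0.46 ± 0.10 (adjusted p = 0.0225). Errfi1 lost its call on removal of any 1 of the wild type mice or of knockdown mouse 2 (adjusted p between 0.0638 and 0.116). The other feedback genes Spry1, Spry4, Spred1 and Spred2 differed by 0.11, -0.03, 0.23 and 0.01, and the ERK-induced factors Etv4 and Etv5 by -0.06 and 0.10, none of them called. With array weights 6 genes of this list rose, and after median centring 4.

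Immediate early genes were read because several DUSP genes belong to that class. Of 22 tested genes 3 rose and 1 fell, against 11.6% called over all genes tested. The median difference was 0.18, against 0.02 over all genes tested. Zfp36, which destabilises messenger RNA of inflammatory genes, rose by 1.00 ± 0.26 (adjusted p = 0.0453), the nuclear receptor gene Nr4a1 by 0.52 ± 0.10 (adjusted p = 0.0138) and Ier5 by 0.52 ± 0.10 (adjusted p = 0.0125). Rhob, a small GTPase, fell by 0.59 ± 0.14 (adjusted p = 0.0345). None of these 4 was called in all fits that left out 1 mouse: Zfp36 was lost on removal of any 1 of the wild type mice (adjusted p between 0.113 and 0.17) or of knockdown mouse 1 (0.0525), and Nr4a1 on removal of any 1 of the wild type mice (0.0629 to 0.0844). Ier5 was lost on removal of wild type mouse 1 (0.0764) or 3 (0.0782), and Rhob on removal of any mouse but wild type mouse 2 and knockdown mouse 3 (0.0583 to 0.133). Rhob was also lost after median centring (adjusted p = 0.059), and Zfp36 differed by 0.66 without knockdown mouse 3.

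**Figure D4:**
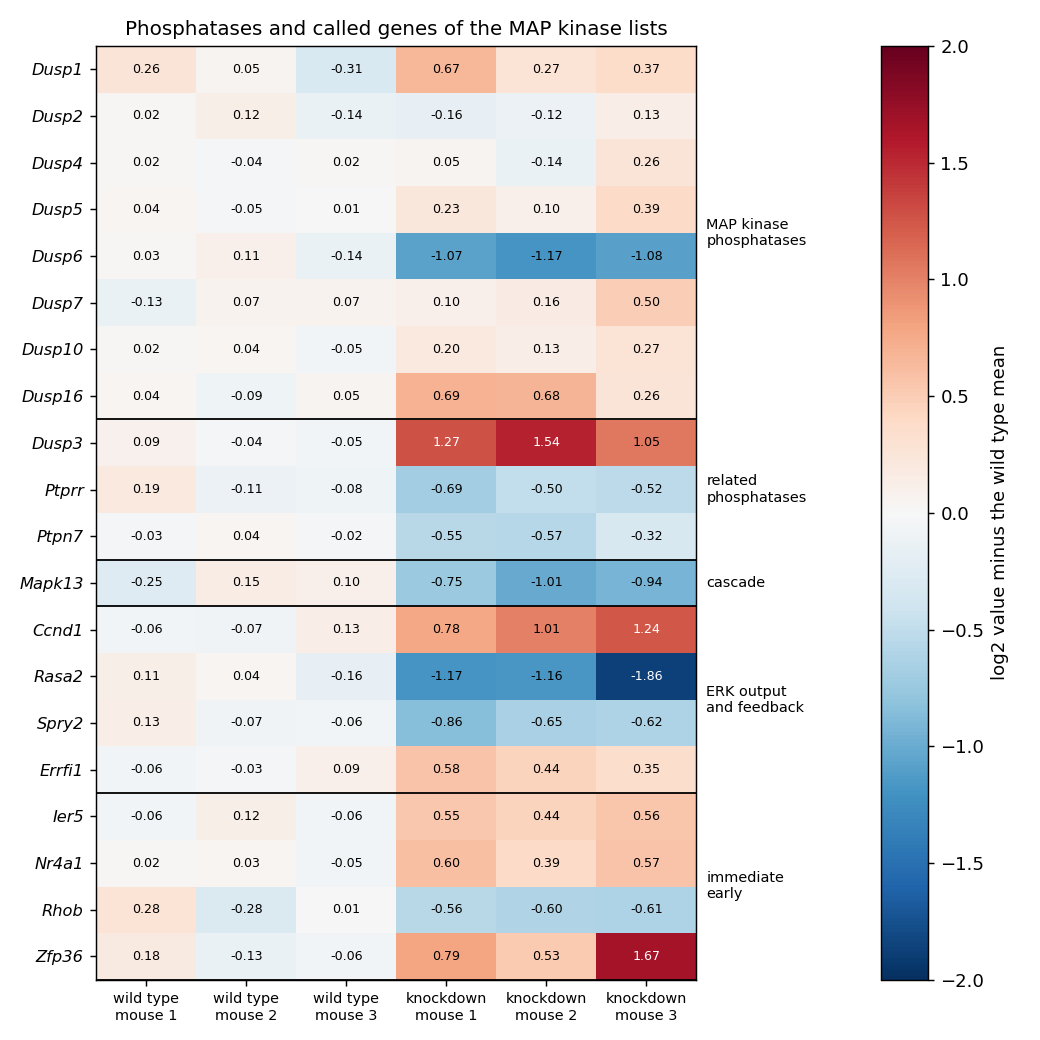
Log2 value minus the wild type mean in each of the 6 mice (columns; the number in each cell and its colour, blue lower and red higher) for the 8 MAP kinase phosphatases and, below them, the called genes of each related list, up to 4 of smallest p (rows). Dusp6, Rasa2 and Mapk13 are lower and Dusp3 and Ccnd1 higher in each knockdown mouse, and Zfp36 is highest in knockdown mouse 3, at 1.67.

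The order of the mice within a group was also read for the phosphatase genes. Knockdown mouse 3, the array that stood apart, had the highest knockdown value for 5 of the 8 genes (Dusp2, Dusp4, Dusp5, Dusp7 and Dusp10) and the lowest for Dusp16. It was the highest of its group for 15 of 22 immediate early genes (68.2%) and for 44.9% of all genes tested. It was the lowest for 42.9% of all genes tested, so it was at an end of its group for most genes, not only for the phosphatases. In a group of 3 mice a random order also puts a given mouse at an end for most genes. Being at an end is therefore not by itself a trait of mouse 3. The mean level of the immediate early list, with the untested Nr4a3 included, was 7.46, 7.40 and 7.71 in knockdown mice 1, 2 and 3. For Dusp1, wild type mouse 1 was the highest of its group and mouse 3 the lowest, an arrangement seen for 9 of 22 immediate early genes (40.9%) and for 11.3% of all genes tested. The mean of that list in wild type mice 1, 2 and 3 was 7.47, 7.37 and 7.28. How much of the differences of Dusp1, Dusp5 and Dusp7 moves with this order of the mice was not tested.

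Markers of other cell types moved with the groups as well. All 10 neutrophil granule genes were lower in the knockdown, 8 of them called, with a mean level between 12.08 and 12.11 in wild type and between 10.19 and 10.78 in the knockdown. The 3 eosinophil genes (9.52 to 9.78 against 6.05 to 7.14) and the 4 basophil and mast cell genes (10.21 to 10.74 against 7.89 to 8.33) all fell. The 4 measured megakaryocyte genes all rose (7.23 to 7.34 against 9.06 to 9.33), and 4 of 5 stem cell genes rose (6.79 to 6.97 against 7.61 to 7.78). Of the 5 monocyte genes 1 fell, F13a1, which differed by -2.84. Csf1r and Ccr2 differed by 0.05 and 0.16 and Irf8 and Ly86 by -0.25 and -0.13, none of them called. The lower monocyte level (9.86 to 10.10 against 9.07 to 9.61) thus came mainly from F13a1 and is not a fall of the list as a set. Of the 5 tested B lymphoid genes 2 fell (6.54 to 7.18 against 6.02 to 6.27). The T and NK genes (6.30 to 6.47 against 6.35 to 6.42) held 1 rise and 1 fall in 3 tested: Klrd1 differed by 1.42 and Nkg7 by -1.44. The B lymphoid level also includes Cd79a, and the T and NK level Cd3d and Cd3g, which were under the filter on dim genes. The 4 measured erythroid genes were not called and ranged from 8.23 to 8.79 in wild type and from 7.89 to 9.41 in the knockdown, with mouse 3 the highest of the knockdown mice for each. In a bulk sample of sorted cells, a lower share of a cell type and less RNA per cell cannot be told apart, and the part of the cell types in the fall of Dusp6 and the rise of Dusp16 was not tested.

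The genes whose pattern over the 6 arrays was most like that of Dusp6 were Trim45 (Pearson r = 0.9996), Trappc10 (r = 0.997) and Fcna (r = 0.997). With 6 arrays in 2 groups such values mainly follow the difference between the groups, and 384 genes had an r above 0.95. Trim45, a ubiquitin ligase of the tripartite motif family, fell by 1.04 ± 0.10 (adjusted p = 0.000452), Trappc10, a subunit of a vesicle tethering complex, by 0.44 ± 0.09 (adjusted p = 0.0161) and Fcna, a ficolin, by 0.65 ± 0.10 (adjusted p = 0.00357). Trappc10 lost its call on removal of any 1 of the wild type mice or of knockdown mouse 2 (adjusted p between 0.0666 and 0.0993).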

How the data were processed

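What the authors deposited is a table of log2 values, with a column for each array and a line for each probe set. The submitters' processing notes list Affymetrix Expression Console and limma without versions; background correction and normalization are not stated in what was used here. Of 35556 probe sets, 21789 had exactly 1 symbol in the platform annotation. A gene with several took the one whose mean across the 6 arrays was highest, and genes in the lowest 30% by that mean were left out, leaving 13956 of 19938. Arrays give no read depth, so their number limits the precision. Knockdown was compared with wild type in limma 3.58.1 (R 4.3.3) by lmFit and eBayes with a trend and no covariates, two-sided, with Benjamini-Hochberg adjusted p-values computed over the 13956 genes and a threshold of 0.05. Dusp4, below the filter, was taken from the same fit without a filter. The fit was tested on simulated data. The genes named were the 8 phosphatases, up to 4 called genes of smallest p in each of 4 related lists, Myb, Kit, Itgam and the 3 genes most like Dusp6; Dusp8, Dusp9 and others outside this rule were named for their place in the family or pathway. The members and lists were chosen with earlier results of these data known. Promoters were matched by symbol to RefSeq (GRCm38.p6), for 7 of 8 genes; a planned comparison of the proteins was not made. Alternatives are named with their effect in the closing section.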

Additional observations from a re-analysis of the deposited data

How the results depend on the processing

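Other settings tried were a block for the replicate number, 1 mouse left out at a time, quantile normalization, median centring, all genes kept or the dimmer 50% dropped, averaged probe sets, no eBayes trend and array weights. Dusp6 was called in each of them, and Dusp16 in each but 5 of the 6 fits with a mouse left out. Replicate numbers name different mice, and deviations of same-numbered mice from their group means correlated at 0.29, -0.19 and -0.08 over genes, so they were not taken as pairs; with the replicate block, Dusp6 (adjusted p = 0.00083) and Dusp16 (adjusted p = 0.0423) were still called. Median centring gave 1433 rises over all genes, 1 rise in the cascade, 4 rises among ERK output genes, 0 falls among immediate early genes and a Dusp2 difference of 0.0229. Array weights gave 2351 rises and 1561 falls over all genes, 2 rises among the 8 phosphatases (Dusp1 at 0.55 being added), 2 rises among related phosphatases, 3 rises and 3 falls in the cascade, and 6 rises each among ERK output and immediate early genes. Quantile normalization gave 1 rise in the cascade. Dropping the dimmer 50% left 1 fall among related phosphatases, Ptpn7, because Ptprr was then too dim to be tested. With 1 mouse left out, rises over all genes ranged from 298 to 2391 and falls from 365 to 1401, the ends coming without wild type mouse 1 and without knockdown mouse 3. Rises ranged from 0 to 1 among the 8 phosphatases, 1 to 4 among related phosphatases, 0 to 2 in the cascade, 1 to 5 among ERK output genes and 0 to 4 among immediate early genes. Falls ranged from 0 to 2 among related phosphatases, 1 to 3 in the cascade and 0 to 2 among immediate early genes. The Dusp2 difference ranged from -0.1426 to 0.0059, was 0.0034 without knockdown mouse 1, and that of Dusp16 from 0.47 to 0.69. The causes of these changes were not tested. The array weights were estimated by an iteration that stopped before its convergence tolerance was met. Dusp4 was below the filter on dim genes, and signal over background was not analysed here.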
